A study of Mus musculus with 59 samples.

Results

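The homeobox and zinc finger genes Onecut2, Fezf1, Hmx2 and Hmx3 were followed through every deposited list of histone-mark intervals of the study. The samples carried a tagged knock-in allele of H3f3a, one of the genes for histone H3.3, either with the K27M mutation or wild type (WT). The members are 3 windows of the mouse genome, build mm9: chr18:64467000-64560000 for Onecut2, chr6:23180000-23240000 for Fezf1 and chr7:138645000-138710000 for the neighbouring genes Hmx2 and Hmx3. In RefSeq gene order Onecut2 lies between St8sia3 and Fech, Fezf1 between Aass and Cadps2, and Hmx3 and Hmx2 together between Acadsb and Bub3. Every island or peak that overlapped a window was taken. After intervals sharing at least 1 bp were merged over the lists of a mark, the windows held 7 of 56903 H3K27me3 regions, 3 of 99012 H3K27ac regions and 10 of 41271 H3K4me3 regions. The loci were chosen for their H3K27me3 values in these same samples, so the H3K27me3 levels and differences below are a description and carry no test. H3K27ac and H3K4me3 were tested. It is not stated whether these marks also played a part in the choice, so their p-values carry that limit.

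The K27M tumours were brainstem tumours that carried the H3f3aLSL-K27M-Tag/+ allele together with LSL-PDGFRαV544ins and Trp53flox/flox, recombined by the driver Nestin-creERT2. The WT tumours carried H3f3aLSL-WT-Tag/+ in place of the K27M allele and shared the Cre driver, the activated PDGFRα and the Trp53 deletion, so no tumour had a normal Trp53 or PDGFRα background. H3K27me3 and H3K27ac were profiled in 6 K27M tumours (numbered 1 to 6) and 5 WT tumours (7 to 11), and H3K4me3 in K27M tumours 2 and 6 and WT tumours 7, 9 and 10. The neurospheres, cultured neural precursors from e15.5 mouse brain, carried Nestin-cre with H3f3aLSL-K27M-Tag/+ or H3f3aLSL-WT-Tag/+ and were profiled for H3K27me3 only, in 3 K27M forebrain, 3 K27M hindbrain and 3 WT hindbrain libraries. No WT forebrain library was analysed here. In both systems recombination depends on the Nestin promoter, which is active in neural precursors.

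Sex was unevenly spread. K27M tumours 1 to 4 were male and 5 and 6 female, whereas WT tumour 9 was male and the other 4 female; WT hindbrain neurosphere 3 was male and the other 8 neurosphere libraries female. The X chromosome took 9.96 to 52.2% of island reads in female tumours against 0.216 to 0.577% in male tumours, so ratios of levels are also given over autosomal island reads alone. A list of islands held 3208588 to 16323822 island reads in 6905 to 42879 islands. K27M hindbrain lists held fewer islands (9078 to 10739) than WT hindbrain lists (18604 to 19667).

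H3K27me3 is laid down by Polycomb repressive complex 2 and marks developmental genes that are kept silent; H3K27ac marks active enhancers and promoters, and H3K4me3 marks promoters. A lysine-to-methionine change at this residue of H3 inhibits the enzymatic subunit of Polycomb repressive complex 2, and the mark is then lost over much of the genome and kept at some sites. ONECUT2 is a cut-homeobox transcription factor of liver, pancreas and developing neurons. FEZF1 is a zinc finger repressor of the early forebrain and olfactory system. HMX2 and HMX3 are NK-like homeobox factors of the inner ear, where they specify vestibular structures, and of the hypothalamus.

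Promoters of developmental transcription factors are often rich in CpG, the dinucleotide found in the islands to which Polycomb complexes are recruited, so the starts of these genes are shown with each CG in capitals. RefSeq promoter windows (build GRCm38.p6, 300 bases, 250 before and 50 after the start) were matched for 3 of the 4 members, with 2 starts for Hmx2. CG reads the same on both strands and no other motif was searched.
Fezf1 promoter, chr6:23248215-23248514, minus strand: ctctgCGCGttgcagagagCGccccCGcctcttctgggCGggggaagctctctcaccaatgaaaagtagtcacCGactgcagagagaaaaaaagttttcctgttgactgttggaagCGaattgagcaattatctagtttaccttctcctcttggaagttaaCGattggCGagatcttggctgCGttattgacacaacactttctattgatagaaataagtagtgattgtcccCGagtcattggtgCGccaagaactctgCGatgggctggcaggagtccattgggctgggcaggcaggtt
Hmx2 first start promoter, chr7:131548507-131548806, plus strand: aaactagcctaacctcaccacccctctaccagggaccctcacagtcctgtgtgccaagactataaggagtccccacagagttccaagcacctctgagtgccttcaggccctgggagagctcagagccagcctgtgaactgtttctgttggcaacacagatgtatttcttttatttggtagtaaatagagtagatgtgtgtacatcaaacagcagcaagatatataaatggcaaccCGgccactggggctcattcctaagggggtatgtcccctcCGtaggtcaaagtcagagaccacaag
Hmx2 second start promoter, chr7:131554043-131554342, plus strand: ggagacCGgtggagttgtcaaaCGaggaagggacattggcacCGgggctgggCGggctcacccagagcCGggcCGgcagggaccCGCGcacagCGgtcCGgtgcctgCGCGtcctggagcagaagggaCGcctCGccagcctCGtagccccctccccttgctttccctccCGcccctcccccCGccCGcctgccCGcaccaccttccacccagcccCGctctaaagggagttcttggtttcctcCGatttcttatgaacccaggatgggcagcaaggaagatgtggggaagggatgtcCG
Hmx3 promoter, chr7:131542713-131543012, plus strand: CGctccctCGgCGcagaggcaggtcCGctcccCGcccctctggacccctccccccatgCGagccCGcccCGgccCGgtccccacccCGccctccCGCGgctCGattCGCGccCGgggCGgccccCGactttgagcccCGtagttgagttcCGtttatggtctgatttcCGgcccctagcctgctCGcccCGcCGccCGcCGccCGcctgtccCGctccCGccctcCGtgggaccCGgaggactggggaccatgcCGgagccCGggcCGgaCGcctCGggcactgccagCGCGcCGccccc
The Hmx3 window held 39 CG and was 78.0% G or C, and 4.45% of the 32851 promoter windows in the table held as many CG. The second Hmx2 start held 22 CG (as many in 23.1% of windows), the Fezf1 start 13 (37.9%) and the first Hmx2 start 2 (85.9%). The median of all windows was 7, and 94.6% held at least 1. Hmx3, the second Hmx2 start and Fezf1 thus lay above that median, and the first Hmx2 start below it. These coordinates belong to another build than the islands and were not placed against them.

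In the neurospheres each window was dominated by one broad H3K27me3 island, which held at least 95.6% of the reads. The interval counts are whole sequencing reads per island as the authors deposited them. RPM stands for the reads of the islands overlapping a window per 1000000 island reads of the list. It is a share of the island reads and does not give an absolute amount of the mark.

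The Onecut2 window held 1799, 2050 and 1645 RPM in K27M hindbrain neurospheres 1 to 3, against 659, 755 and 992 RPM in WT hindbrain neurospheres 1 to 3. The Fezf1 window held 3560, 4166 and 3353 RPM in K27M hindbrain and 1323, 1535 and 1994 RPM in WT hindbrain. The Hmx2 and Hmx3 window held 2519, 2891 and 2448 RPM in K27M hindbrain and 865, 992 and 1282 RPM in WT hindbrain. At all 3 windows every K27M library lay above every WT library. The male WT library 3 was the highest of its group in RPM, but WT library 2 was the highest over autosomal island reads. The X chromosome took 0.852% of island reads in WT library 3 and 32.6 and 30.7% in WT libraries 1 and 2. Groups that did not overlap, with K27M higher, were found at 14.9% of the 3334 regions with an island in all 6 libraries, and at 55% with K27M lower; since the loci were chosen on this mark, nothing is read from their place in these shares. The means were 1831 ± 204 RPM in K27M and 802 ± 171 in WT at Onecut2, 3693 ± 423 and 1617 ± 343 at Fezf1, and 2619 ± 238 and 1046 ± 214 at Hmx2 and Hmx3 (SD, n = 3 each). The K27M to WT ratios of these means were 2.28, 2.28 and 2.5, and 2.61, 2.61 and 2.87 in RPM over autosomal island reads.

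The islands themselves were shorter in K27M hindbrain. K27M hindbrain islands covered 24.4, 26.6 and 26.2 kb of the Onecut2 window and WT hindbrain islands 40.0, 27.4 and 30.2 kb. At Fezf1 the covered length was 53.4, 53.8 and 56.2 kb in K27M hindbrain and 59.0, 60.0 and 59.2 kb in WT hindbrain. At Hmx2 and Hmx3 it was 23.8, 23.4 and 23.4 kb in K27M hindbrain and 32.8, 32.6 and 32.4 kb in WT hindbrain. The groups did not overlap at any of the 3 windows, with K27M the shorter. Without WT hindbrain library 1 the Onecut2 difference in mean covered length was -3.07 kb, against -6.8 kb with it. Of 12348 autosomal tiles of 65 kb that held islands, 55.9% were likewise covered less in every K27M library and 0.356% covered more. When each hindbrain list was limited to its 9078 islands with the most reads, the differences stayed at -6.8 kb at Onecut2, -4.93 kb at Fezf1 and -9.07 kb at Hmx2 and Hmx3. The main islands ranked 18 to 232 by reads, so this limit could not remove them. It therefore does not show whether the differences depend on list size.

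At Hmx2 and Hmx3 that shortening was almost all on one side. The right edge of the island lay 58.6 kb from the window start in all 3 K27M hindbrain libraries and 58.4 to 58.6 kb in WT hindbrain. The left edge lay at 34.8 to 35.2 kb in K27M hindbrain, against 25.6 to 26.2 kb in WT hindbrain. At Fezf1 the right edge of the main island lay 55.0 to 60.4 kb from the window start in K27M hindbrain and 63.4 to 68.8 kb in WT hindbrain. It ran past the right end of the window in 1 of 3 K27M hindbrain libraries and in all 3 WT hindbrain libraries. Within its main island the read density was 502 ± 64.5 reads per kb in K27M hindbrain and 243 ± 79.9 in WT hindbrain at Onecut2, 528 ± 62.8 and 238 ± 45.2 at Fezf1, and 783 ± 40.6 and 303 ± 59.8 at Hmx2 and Hmx3 (SD, n = 3 each, not scaled for depth). No K27M density overlapped a WT density. In bulk chromatin, fewer marked cells and less mark per cell cannot be told apart.

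**Figure D1:**
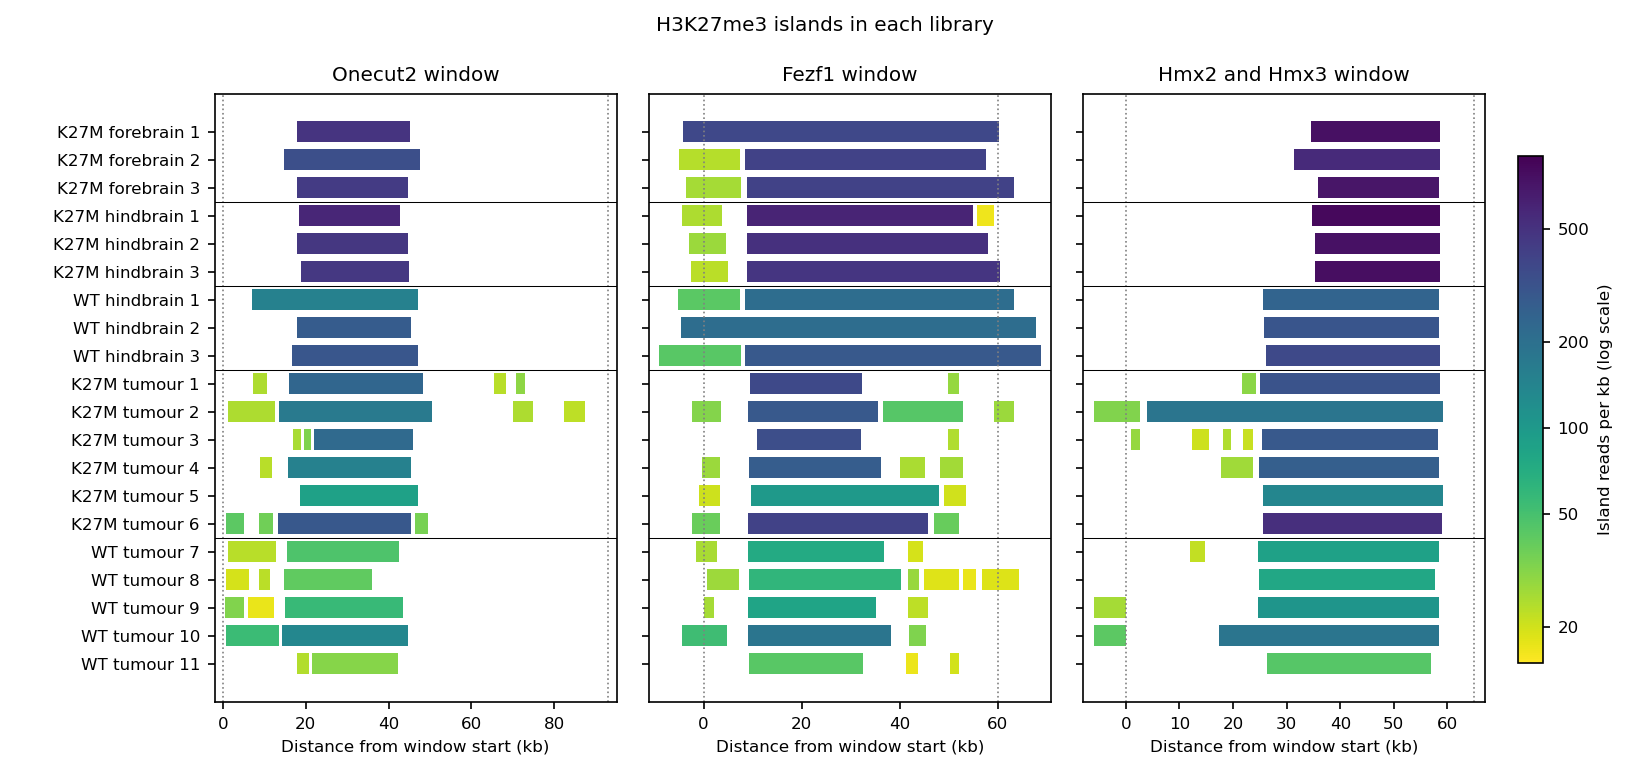
H3K27me3 islands in the 3 windows, 1 row per library, along the distance from the window start in kb; colour gives island reads per kb on a log scale and dotted lines the window ends. In the Hmx2 and Hmx3 panel the right edges line up at 57.0 to 59.2 kb in all 20 libraries, while the left edge lies at 31.4 to 35.8 kb in the 6 K27M neurosphere libraries and at 26.4 kb or less in all other libraries.

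Reads of the member regions were also fitted with all regions that had an island in each of the 6 hindbrain libraries, by edgeR with TMM scaling. The Onecut2 region (chr18:64474001-64514000) was 3.5-fold higher in K27M, a log2 fold of 1.81 (SE 0.14) on 3386 against 967 CPM (counts scaled to the reads of the fitted regions). The Fezf1 region (chr6:23169201-23248800) was 3.49-fold higher (log2 1.80, SE 0.14) on 6828 against 1956 CPM. That of Hmx2 and Hmx3 (chr7:138670601-138703600) was 3.84-fold higher (log2 1.94, SE 0.13) on 4842 against 1262 CPM. By log2 fold these were places 135, 137 and 86 of 3334 regions, whose median was -0.11. Without TMM scaling the log2 folds were 0.89, 0.89 and 1.02, and the median of all regions was -1.02. The TMM factors were 0.685 to 0.764 in K27M and 1.30 to 1.47 in WT libraries. With or without them the folds are relative, so they do not show an absolute gain of the mark.

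The loci were not alone in this among strongly marked regions. In the whole fit 25.9% of regions were higher and 28.4% lower in K27M at an edgeR adjusted p under 0.05. Of the 153 regions with at least as high a CPM in WT hindbrain as Onecut2, the lowest of the 3, edgeR called 108 higher in K27M (70.6%) and 5 lower, with a median log2 fold of 1.53. In reads per kb in WT hindbrain the Hmx2 and Hmx3 region was at rank 3 of 3334, Fezf1 at rank 55 and Onecut2 at rank 60.

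**Figure D2:**
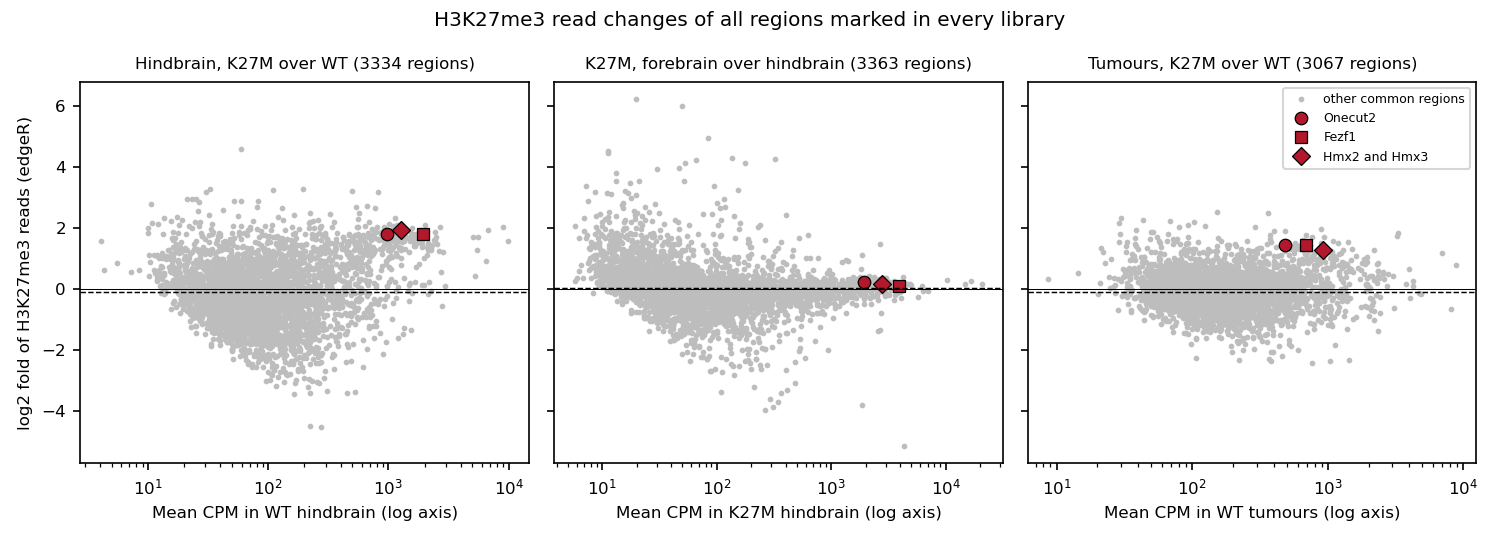
H3K27me3 log2 fold of each region with an island in all libraries of a comparison (y axis) against its mean CPM (x axis, log scale), for K27M over WT hindbrain, K27M forebrain over K27M hindbrain and K27M over WT tumours; coloured points are the member regions. The members lie at 1.80 to 1.94 in hindbrain, 0.08 to 0.22 in the forebrain comparison and 1.28 to 1.44 in tumours.

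Between brain regions of the same genotype the levels differed little. K27M forebrain neurospheres 1 to 3 held 2096, 2186 and 1949 RPM at Onecut2, 3768, 3940 and 3697 at Fezf1, and 2889, 2961 and 2671 at Hmx2 and Hmx3. The ranges of K27M forebrain and K27M hindbrain overlapped at all 3 windows, with forebrain to hindbrain ratios of means of 1.13, 1.03 and 1.08. Forebrain and hindbrain libraries with the same number come from 1 experiment, and within these pairs forebrain was higher in 3 of 3 at Onecut2 and at Hmx2 and Hmx3 and in 2 of 3 at Fezf1. Over autosomal island reads the ratios were 1.06, 0.965 and 1.01, and forebrain was higher in 3, 1 and 2 of 3 pairs at Onecut2, Fezf1 and Hmx2 and Hmx3. Of 3363 regions common to both groups, 23.8% did not overlap with forebrain higher and 25.1% with forebrain lower. The edgeR log2 folds of forebrain over hindbrain were 0.22 (SE 0.13), 0.08 (SE 0.13) and 0.16 (SE 0.12), beside a median of 0.03 over all common regions, of which 31.4% were called in either direction at an adjusted p under 0.05. FEZF1 is a forebrain factor, and its window averaged 3802 ± 125 RPM in K27M forebrain and 3693 ± 423 RPM in K27M hindbrain (SD, n = 3 each).

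Island shape differed slightly between these groups. The covered length was 27.2, 32.8 and 26.8 kb at Onecut2 and 60.0, 56.6 and 58.8 kb at Fezf1 in K27M forebrain, in each case above all 3 K27M hindbrain libraries. At Hmx2 and Hmx3 it was 24.0, 27.2 and 22.6 kb in K27M forebrain and overlapped the K27M hindbrain range. Of 6479 autosomal tiles, 12.7% were covered more and 16.4% less in every forebrain library. Without K27M forebrain library 2 the Onecut2 difference was 1.27 kb, against 3.2 kb with it. The main Fezf1 island held 391 ± 19.4 reads per kb in K27M forebrain and 528 ± 62.8 in K27M hindbrain (SD, n = 3 each), without overlap.

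**Figure D3:**
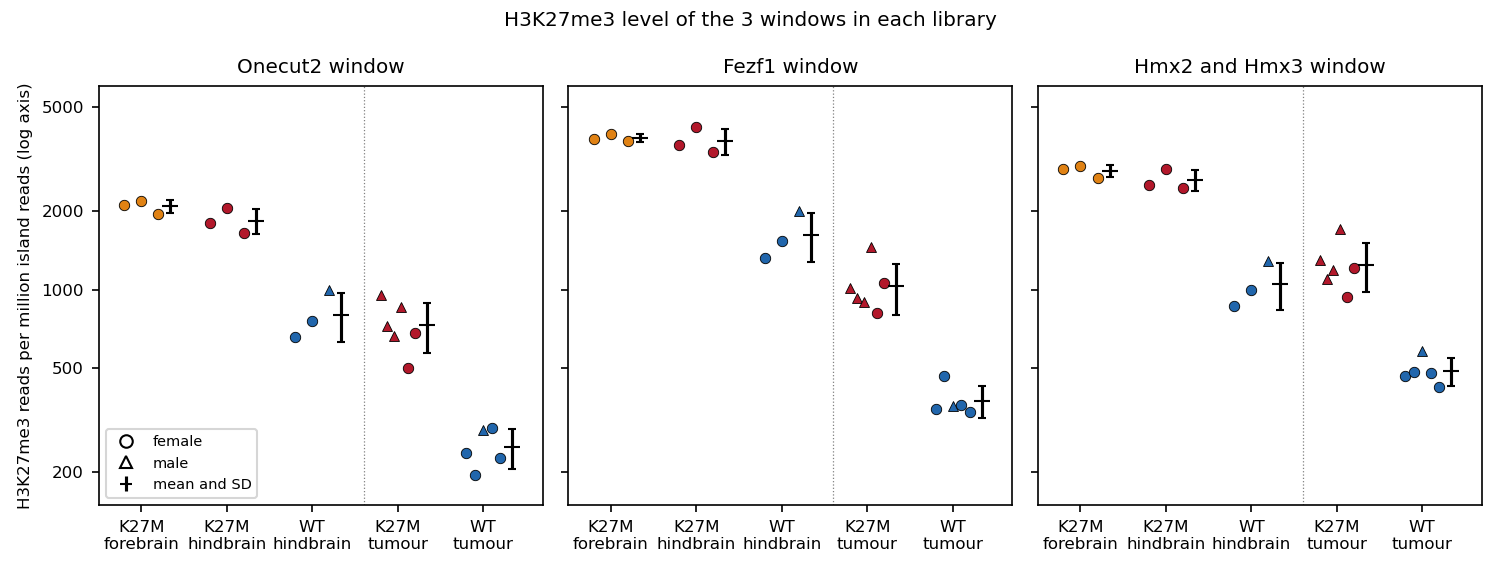
H3K27me3 RPM, over all island reads of a library (log axis), in each window by library, as points with the group mean and SD. K27M groups sit above WT groups in hindbrain neurospheres and in tumours at all 3 windows, K27M forebrain overlaps K27M hindbrain, and tumours sit below hindbrain neurospheres of the same genotype.

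In K27M tumours these loci also took a larger share of the H3K27me3 island reads. Such shares are relative and do not give absolute amounts of the mark. At Onecut2 the 6 K27M tumours held 503 to 955 RPM (median 701), against 238, 196, 290.1, 295 and 226 RPM in WT tumours 7 to 11. At Fezf1 the K27M tumours held 814 to 1454 RPM (median 972), against 350, 466, 358, 363 and 341 RPM in WT tumours. At Hmx2 and Hmx3 they held 938 to 1708 RPM (median 1196), against 465, 484, 583, 479 and 424 RPM in WT tumours. Every K27M tumour lay above every WT tumour at all 3 windows. Such separation with K27M higher was found at 5.51% of the 3067 regions common to all 11 tumours and with K27M lower at 1.11%, and again nothing is read from it for loci chosen on this mark.

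The K27M to WT ratios of mean RPM in tumours were 2.93 at Onecut2, 2.74 at Fezf1 and 2.55 at Hmx2 and Hmx3. Among females (2 K27M and 4 WT tumours) they were 2.48, 2.46 and 2.32, and 4 male K27M tumours over the single male WT tumour gave 2.75, 3.0 and 2.27. Over autosomal island reads the ratios for both sexes together were 2.92, 2.78 and 2.58. They were then 3.43, 3.45 and 3.23 among females and 2.76, 3.01 and 2.28 among males. Which sex had the larger ratio at Onecut2 and Fezf1 thus depended on whether X reads were counted. In each sex the K27M tumours lay above the WT tumours. The edgeR log2 folds were 1.44 (SE 0.19) for Onecut2, 1.44 (SE 0.19) for Fezf1 and 1.28 (SE 0.16) for Hmx2 and Hmx3, at places 61, 62 and 96 of 3067 regions with a median of -0.10. Without TMM scaling they were 1.24, 1.24 and 1.08, and the median was -0.29. Of these regions 7.11% were called higher and 4.66% lower at an adjusted p under 0.05. Of the 451 regions with at least as high a CPM in WT tumours as Onecut2, edgeR called 97 higher in K27M (21.5%) and 27 lower.

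Covered length did not separate the tumour genotypes. At Fezf1 the 6 K27M tumours covered 23.4 to 47.2 kb and the 5 WT tumours 27.8 to 53.0 kb, and the ranges also overlapped at the other windows. Over 21348 autosomal tiles, 0.689% were covered more and 0.45% less in every K27M tumour than in every WT tumour. The mean was 38.3 ± 11.6 kb in K27M and 34.8 ± 8.02 kb in WT tumours at Onecut2, 37.9 ± 10.9 and 37.0 ± 9.63 kb at Fezf1, and 40.3 ± 9.13 and 35.0 ± 4.01 kb at Hmx2 and Hmx3 (SD, n = 6 and 5). Read density in the main island was 194 ± 72.8 reads per kb in K27M and 62.3 ± 41.7 in WT tumours at Onecut2, 295 ± 107 and 88.7 ± 54.1 at Fezf1, and 285 ± 134 and 100.1 ± 52.2 at Hmx2 and Hmx3, with overlapping ranges. WT tumour 10, the list with the most island reads (16323822), had the highest density of its group at every window.

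The Fezf1 island was shorter in tumours than in neurospheres. The main island spanned 21.2 to 38.4 kb in K27M tumours against 46.2 to 51.6 kb in K27M hindbrain neurospheres, and 23.4 to 31.0 kb in WT tumours against 55.0 to 72.4 kb in WT hindbrain. Its left edge lay at 9.0 to 10.8 kb in all 11 tumours and its right edge at 32.0 to 48.0 kb. By contrast, the island over Hmx2 and Hmx3 was longer in K27M tumours, at 32.8 to 55.2 kb against 23.4 to 23.8 kb in K27M hindbrain. In WT the tumours (30.6 to 41.0 kb) overlapped the hindbrain libraries. RPM was lower in tumours than in hindbrain neurospheres of the same genotype at every window, with tumour to hindbrain ratios of 0.398, 0.278 and 0.473 in K27M and 0.31, 0.232 and 0.466 in WT. Over autosomal island reads these ratios were 0.331, 0.236 and 0.398 in K27M and 0.297, 0.222 and 0.442 in WT. Tissue and culture, Cre driver, PDGFRα, Trp53 and the mix of sexes all differ between these samples and cannot be told apart.

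The 3 loci followed each other closely. Across all 20 H3K27me3 libraries, log2 RPM of the Onecut2 region correlated with that of Fezf1 at Pearson r = 0.974 and with Hmx2 and Hmx3 at 0.983, and Fezf1 with Hmx2 and Hmx3 at 0.964. Among 1397 regions with an island in every library, those most like Onecut2 were chr18:11042401-11079600 (r = 0.99) and chr6:52021001-52284600 (0.988). Those most like Fezf1 were chr9:40641201-40706600 and chr2:146901801-146939400 (0.989 each), and those most like Hmx2 and Hmx3 were chr9:98821001-98888600 and chr6:70881801-70931400 (0.993 each). The points share genotype, tissue and, within a library, the same total of island reads, so these values describe a common pattern over the 5 groups.

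Few H3K27ac peaks were called in the 3 windows. No H3K27ac peak overlapped the Fezf1 window in any of the 11 tumours. At Onecut2 none was called in the 6 K27M tumours, and 1 each in WT tumours 10 and 11: a 407 bp peak inside the island and a 258 bp peak outside it, 82.5 kb from the window start. The number of peaks per tumour was 0 in K27M and 0.4 ± 0.548 in WT (SD, n = 6 and 5; two-sided exact permutation p = 0.182). With a peak in only 2 tumours, both WT, no smaller p was possible. The test therefore could not decide whether the genotypes differ here. Of 99012 merged regions, 14880 had a number of calls that could give an unadjusted p under 0.05 in Fisher's exact test. The regions in the windows were not among these. At an adjusted p under 0.05 the test called 0 of the 14880 (0%), and 363 had an unadjusted p under 0.05.

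A single H3K27ac peak overlapped the Hmx2 and Hmx3 window in all 11 tumours, at the right edge of the island. It lay within chr7:138703766-138704755; which gene it belongs to was not determined, as no mm9 annotation was used. It measured 799, 808, 674, 711, 724 and 801 bp in K27M tumours 1 to 6 and 836, 951, 850, 796 and 832 bp in WT tumours 7 to 11. The mean was 753 ± 57.1 bp in K27M and 853 ± 58.3 bp in WT (SD, n = 6 and 5), a difference of -100.2 bp with 3 K27M peaks longer than the shortest WT peak (two-sided exact permutation p = 0.0216). Across the 15014 H3K27ac regions present in every tumour, 6.49% reached an unadjusted p under 0.05 and 0% an adjusted one, and this peak had an adjusted p of 0.757. The authors' -log10 q of the peak was 25.3 to 90.2 (median 55.8) in K27M and 67.0 to 166 (median 80.2) in WT tumours. Ranked by q within its own list, it stood 1.84 to 13.6% of the way down in K27M and 2.31 to 5.07% in WT tumours. These ranks overlapped, with the best in K27M tumour 1. The island of the same tumour reached into the peak in K27M tumours 2, 5 and 6, by 402, 373 and 177 bp, and in no WT tumour (two-sided exact permutation p = 0.182).

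**Figure D4:**
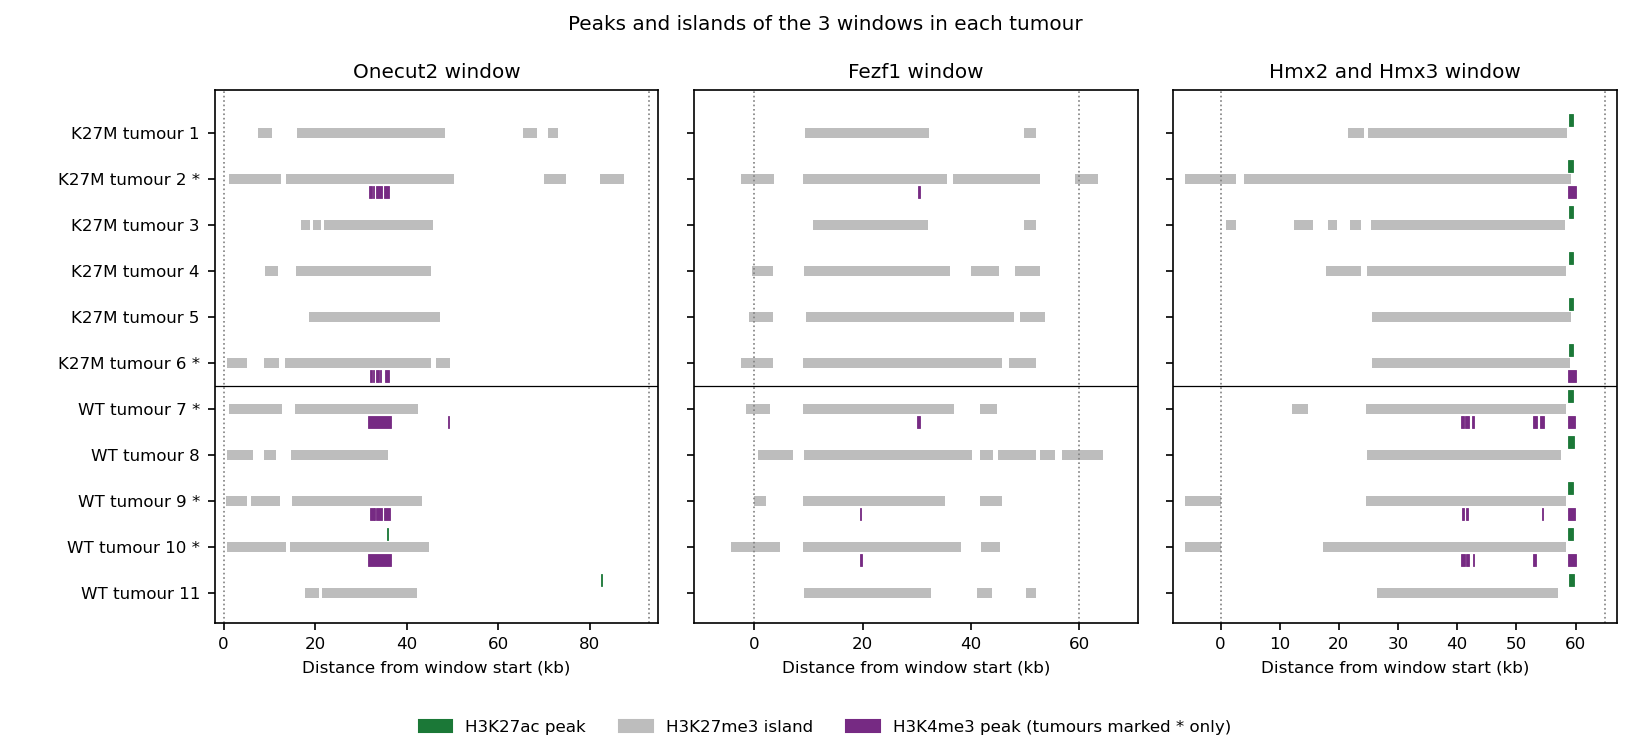
H3K27ac and H3K4me3 peaks in the 3 windows, 1 row per tumour, along the distance from the window start in kb, drawn over the H3K27me3 islands. An edge peak at Hmx2 and Hmx3 stands in all 11 tumours for H3K27ac and all 5 for H3K4me3, and the H3K4me3 peaks inside that island stand only in WT tumours 7, 9 and 10.

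H3K4me3 peaks lay inside the islands of all 3 windows. The Hmx2 and Hmx3 window held 1 peak in each of K27M tumours 2 and 6 against 6, 4 and 5 peaks in WT tumours 7, 9 and 10 (two-sided exact permutation p = 0.1, the smallest that 2 against 3 tumours allow). The peak of all 5 tumours was the edge peak, 1240 and 1271 bp long in K27M and 1058, 1200 and 1294 bp in WT. The others, 40.6 to 54.6 kb from the window start, were found only in WT tumours, and their -log10 q of 4.09 to 21.6 placed them in the weaker part of each WT list (55.6 to 96.7% of the way down). The covered length was 1256 ± 21.9 bp in K27M and 3131 ± 893 bp in WT (SD, n = 2 and 3; exact permutation p = 0.2).

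Of the 10 merged H3K4me3 regions in the 3 windows, 2 had a peak in all WT and no K27M tumours, at chr7:138685595-138686265 and chr7:138686387-138687061, both in the Hmx2 and Hmx3 island. None had the opposite pattern. Over all 41271 regions, 0.509% had a peak in all WT and no K27M tumours and 1.8% the opposite; among the 6221 inside an H3K27me3 region common to the tumours the shares were 1.08% and 1.66%. The 2 regions lie less than 1 kb apart and are not independent.

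At Onecut2 the same stretch, 31.6 to 36.6 kb from the window start and inside the island, carried H3K4me3 in all 5 tumours. It was called as 4 and 5 separate peaks in K27M tumours 2 and 6 and as 4 peaks in WT tumour 9, but as single peaks of 5052 and 4938 bp in WT tumours 7 and 10. The covered length of the window was 2781 ± 440 bp in K27M and 4644 ± 808 bp in WT tumours (SD, n = 2 and 3). Both K27M tumours, at 3092 and 2470 bp, lay below WT tumours 7, 9 and 10, at 5264, 3731 and 4938 bp. The two-sided exact permutation p was 0.2, and 2 against 3 tumours cannot go below 0.1, so this p does not show that the lengths were alike. At Fezf1 K27M tumour 2 had 1 peak of 412 bp and K27M tumour 6 none, and WT tumours 7, 9 and 10 had 1 each of 508, 219 and 266 bp, at 2 separate positions (exact permutation p = 0.6 for covered length). The Fezf1 lengths overlapped between the genotypes. Of the 10 merged regions, 3 were covered less in both K27M tumours than in every WT tumour, 1 at Onecut2 and 2 at Hmx2 and Hmx3, and 0 were covered more; over all 41271 regions 4.79% were covered less without overlap and 10.5% more.

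Set beside the 3067 H3K27me3 regions common to all tumours, the loci differed among themselves in the other marks. An H3K27ac peak overlapped the Onecut2 region in 1 of 11 tumours, the Fezf1 region in 0 and the right edge of the Hmx2 and Hmx3 region in 11. These regions merge the islands of all tumours. The Hmx2 and Hmx3 peak overlapped the island of its own tumour only in K27M tumours 2, 5 and 6. Elsewhere it lay 205 to 1830 bp beyond the main island. Of all common regions, 32.5% had no H3K27ac in any tumour and 18.5% had it in all 11. An H3K4me3 peak overlapped the Onecut2 region and the Hmx2 and Hmx3 region in 5 of 5 tumours and the Fezf1 region in 4 of 5, and 69.8% of common regions had one in all 5. Among the 962 common regions at least 46.6 kb wide, the narrowest width of the 3, these shares were 20.6%, 25.9% and 73.2%.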

How the data were processed

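Chromatin immunoprecipitation sequencing lists from 36 of the 59 samples were used (20 H3K27me3, 11 H3K27ac, 5 H3K4me3); the other 23 are input samples. Per the labels, Drosophila chromatin was added before precipitation; no scale factor from it was used, so the values are relative and not absolute amounts. SICER 1.1, MACS2, bedtools 2.25.0, BWA 0.7.12, SAMtools, Picard, R 2.14.0 and the build mm9 are listed in the submitters' processing notes, without roles. The authors deposited H3K27me3 islands as intervals with a whole-number read count, in 200 bp steps, and H3K27ac and H3K4me3 peaks with a score, a fold enrichment and -log10 p and q values, per sample. All deposited peaks in the 16 peak lists have a -log10 q of at least 2. An interval that was not called has no value, and the lists give neither total depth nor background. Counting error was not compared with the spread between libraries.

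The members and lists were chosen with earlier results of these data known. Members are the 3 windows and every merged region overlapping them; for likeness, the 2 regions with the highest Pearson r. Regions merged at 1 bp with an island in every library of a comparison entered the quasi-likelihood test of edgeR 4.0.16 in R 4.3.3, with TMM and Benjamini-Hochberg adjustment at 0.05, checked on simulated counts; DESeq2 1.42.0 was an alternative. Peak numbers and lengths were compared by exact permutation tests, without adjustment over windows unless given. H3K27ac calls over all regions were compared by Fisher's exact test (SciPy 1.17.1). The labels do not say that samples came from separate animals, so p-values measure only the spread between these samples. In neurospheres a shared experiment number in the labels pairs libraries; deviations of same-numbered libraries correlated at 0.10, -0.03 and 0.02 between K27M and WT hindbrain and at 0.20, 0.24 and 0.21 between forebrain and hindbrain. Other settings tried were size factors, filters, autosomes alone, stricter or equal numbers of peaks, and leaving out each library. Gene order came from RefSeq GRCm38.p6. The paralogs Onecut1, Onecut3, Fezf2 and Hmx1 and the cell type markers planned for the tumours were not analysed here, since no mm9 annotation was used.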

Additional observations from a re-analysis of the deposited data

Results flagged for a closer look

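Of 21 gap ratios computed over groups of 5 or 6 tumours, 4 stood beyond Dixon's 95% critical value, where chance flags about 1 group in 20. The Hmx2 and Hmx3 window was covered by H3K27me3 islands over 57.8 kb in K27M tumour 2, against 33.4 to 41.0 kb in the other 5 K27M tumours. The main Onecut2 island held 135 reads per kb in WT tumour 10, against 31.8 to 56.8 in the other 4 WT tumours. The main Fezf1 island held 182 reads per kb in WT tumour 10, against 43.3 to 82.1 in the other 4. Fezf1 had 466.0 RPM in WT tumour 8, against 341 to 363 in the other 4 WT tumours. The 2 densities are not scaled for depth, and WT tumour 10 had the most island reads of the 20 lists, 16323822.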

How the results depend on the processing

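Of 446 alternative values for 44 results, 421 kept their direction and side of the threshold or their size. Another 10 moved, 1 became stronger and 14 changed sign, each of the 14 in a difference whose groups overlapped or that was not called. Part of the 421 was fixed in advance. In each of the 9 H3K27me3 covered-length results, 1 alternative only reassigned labels and left the difference unchanged. All Fezf1 H3K27ac lengths were 0, and the limit on hindbrain islands could not remove the main islands. The 421 is therefore no measure of robustness. For Fezf1 in forebrain over hindbrain, the log2 fold was -0.025 over autosomes alone and -0.019 to 0.187 with 1 library left out, and the log2 ratio of RPM was -0.012 with reads shared out by length, -0.0505 over autosomal reads and -0.0191 to 0.137 with 1 library left out. Covered-length differences with 1 library left out were -0.44 to 5.76 kb at Onecut2 and -1.35 to 4.95 kb at Fezf1 in tumours, and -0.233 to 2.07 kb at Hmx2 and Hmx3 in forebrain over hindbrain. The Fezf1 H3K4me3 difference of -125 bp was 44.33 bp when all lists were limited to an equal number of peaks and -331 to 81 bp with 1 tumour left out. Over 11 alternatives the hindbrain log2 folds were 0.89 to 2.00 at Onecut2, 0.89 to 1.99 at Fezf1 and 1.02 to 2.10 at Hmx2 and Hmx3, and over 16 the tumour log2 folds were 1.24 to 1.74, 1.24 to 1.60 and 1.08 to 1.41. Counting regions with an island in every library of at least 1 group gave 5334 calls in hindbrain (1809 with an island in all libraries) and 2124 between forebrain and hindbrain (1057). The tumour count of 361 was 634 with DESeq2 and 234 to 451 when 1 tumour was left out, with 236 without K27M tumour 6 and 234 without WT tumour 7. Without composition factors the split of higher and lower regions was 319 and 2129 in hindbrain (863 and 946 with TMM) and 158 and 300 in tumours (218 and 143). With TMM scaled reads the hindbrain log2 differences were 1.8, 1.8 and 1.94 at Onecut2, Fezf1 and Hmx2 and Hmx3, against 1.21, 1.21 and 1.34 in RPM. Counting whole islands past the window ends made the Fezf1 covered-length difference -14.47 kb in hindbrain (-4.93 within the window) and 5.93 kb in forebrain over hindbrain (4.0). With experiment as a replicate block the hindbrain count was 1712 and the forebrain count 1280, the Onecut2, Fezf1 and Hmx2 and Hmx3 hindbrain log2 folds were 1.80, 1.80 and 1.94, and those of forebrain over hindbrain 0.23, 0.09 and 0.16. The Hmx2 and Hmx3 H3K27ac length difference stayed between -114 and -75.7 bp when 1 tumour was left out. The test of H3K27ac peak length over all regions and the counts of calls among strongly marked regions were added after the data had been seen. Peak lists hold no counts, so a peak below the authors' threshold cannot be told from none, and 2 against 3 H3K4me3 tumours cannot reach p below 0.1.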
